A study of Homo sapiens with 3 samples.

Results

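The genes described here are the 56 DNA replication and G1/S genes of a fixed list. They were found as the probe sets whose platform gene symbol was exactly that of a list member, and all 56 were present among the 19775 genes with a probe set of their own. RNA of THP-1, an established human monocytic leukemia cell line, was measured on 3 one-colour oligonucleotide arrays, 1 per condition. The undifferentiated culture was untreated. The culture labelled 3 days PMA differentiated (PMA 3 days) had 200 nM phorbol myristate acetate (PMA), an activator of protein kinase C, for 24 hours and then 3 days without it. The culture labelled 8 days PMA differentiated (PMA 8 days) had 200 nM PMA for 72 hours and then 5 days without it. Cells grew in 96-well plates in medium with 10% serum, and medium with 2% serum was given for the last 16 hours before RNA was taken. The labels do not say whether the undifferentiated cells also had that change of serum. PMA, time in culture and serum can therefore not be told apart in the comparisons with undifferentiated cells, and time in PMA and time since PMA differ together between the PMA cultures. With 1 array per condition no test between conditions was possible, no p-value is given, and the number of arrays limits the precision of every value.

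These genes prepare and carry out the copying of DNA. In G1 the origin recognition complex (ORC), CDC6 and CDT1 load the ring-shaped MCM helicase onto origins, a step called licensing, and geminin (GMNN) blocks CDT1 after S phase has begun. At the start of S phase the kinase CDC7 with its activator DBF4, and cyclin E with CDK2, turn the loaded rings into active helicases by adding CDC45 and the GINS complex. Primase and the polymerases alpha, delta and epsilon then make new strands with the sliding clamp PCNA, its loader RFC and the single-strand binding protein RPA. E2F transcription factors drive many of these genes in cycling cells, and the retinoblastoma protein family holds E2F back in resting cells. THP-1 cells that become macrophage-like under PMA are known to leave the cell cycle.

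Signals are in the arrays' linear signal units. A ratio is between arrays for the gene's brightest probe set, with values under a floor of 149.8 raised to it, and a gene is called lower or higher at 2-fold. All 56 genes lay above the floor on all 3 arrays, with 338 as the lowest signal. As an error, only the spread between probe sets of a gene was at hand. Over 5180 genes the log2 ratio to undifferentiated cells had an SD of 0.43 for PMA 3 days and 0.44 for PMA 8 days, and the ratio between the PMA arrays had an SD of 0.27. This spread covers neither culture nor labelling differences. The labelling controls added as poly-A RNA had a median log2 ratio of 0.36 between PMA 3 days and undifferentiated and -0.29 between PMA 8 days and PMA 3 days. The part of this difference in the results was not tested. For the 56 genes and their roles, counts past 2-fold scaled to these controls, or centred on the median of all genes, are given where they change. The other gene lists, single probe sets and promoter groups were counted as deposited only. Of the macrophage markers 7 of 7 were at least 2-fold higher on both PMA arrays, CD163 by 122-fold at PMA 3 days. Among markers of fibroblasts, epithelium and endothelium, PDGFRB, EPCAM, KRT19 and CDH5 stayed under the floor on all 3 arrays, and COL1A1 was measured at 464, 2337 and 1828 signal units. Signals of a gene are listed here with undifferentiated cells first, then PMA 3 days, then PMA 8 days. Of the 4 lymphoid markers CD3E, CD3D and MS4A1 also stayed under it, while NKG7 was above it on all 3 arrays, with a log2 ratio to undifferentiated cells of -1.19 at PMA 3 days and -0.80 at PMA 8 days. Of the 7 monocytic markers CD14, CSF1R and ITGAM were at least 2-fold higher at PMA 3 days (CD14 had 850, 34195 and 22449), and ELANE, with 32064, 156 and 199, was 206-fold lower. LYZ had 62439, 36591 and 23242, FCN1 had 54.3, 221 and 240, and MPO stayed under the floor. Of 3 erythroid or megakaryocyte markers PPBP was the 1 past 2-fold, with 4.49, 3249 and 5557. The part of these markers in the results was not tested.

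Replication and G1/S genes were lower at PMA 3 days than in undifferentiated cells almost throughout. Of the 56 genes 23 were called lower and 0 higher, with a median log2 ratio of -0.90. Of all 13280 genes measured in this comparison 10.6% were lower and 10.3% higher, with a median of -0.12. Scaled to the poly-A controls, 39 of the 56 were lower, beside 19.6% of all genes lower and 7.14% higher, and the median of all genes moved to -0.42. The 16 further genes were CDC6, E2F2, FEN1, GINS4, MCM6, ORC1, ORC2, POLA2, POLD2, POLD3, RFC2, RFC3, RFC4, RPA3, RRM1 and RRM2. Centred on the median of all genes, 16 of the 56 were lower, beside 8.3% of all genes, and the calls of DBF4, GINS2, GMNN, MCM4, MCM10, PCNA and POLE were lost. Quantile normalization gave 21, without MCM10 and POLE. A ratio below 0 was found for 54 of 56 genes, beside 57.5% of all genes, and for 53 of 56 after quantile normalization or centring. Only 13% of all genes lay at or below the median of the list. The changes were mostly moderate: 3 genes, E2F8, MCM7 and CDC45, were lower by at least 4-fold, and 20 genes lay within 0.2 log2 units of the 2-fold threshold, 10 just past it and 10 just short of it. The count of calls therefore turns on small differences. In bulk RNA fewer cycling cells and less RNA per cycling cell cannot be told apart.

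**Figure D1:**
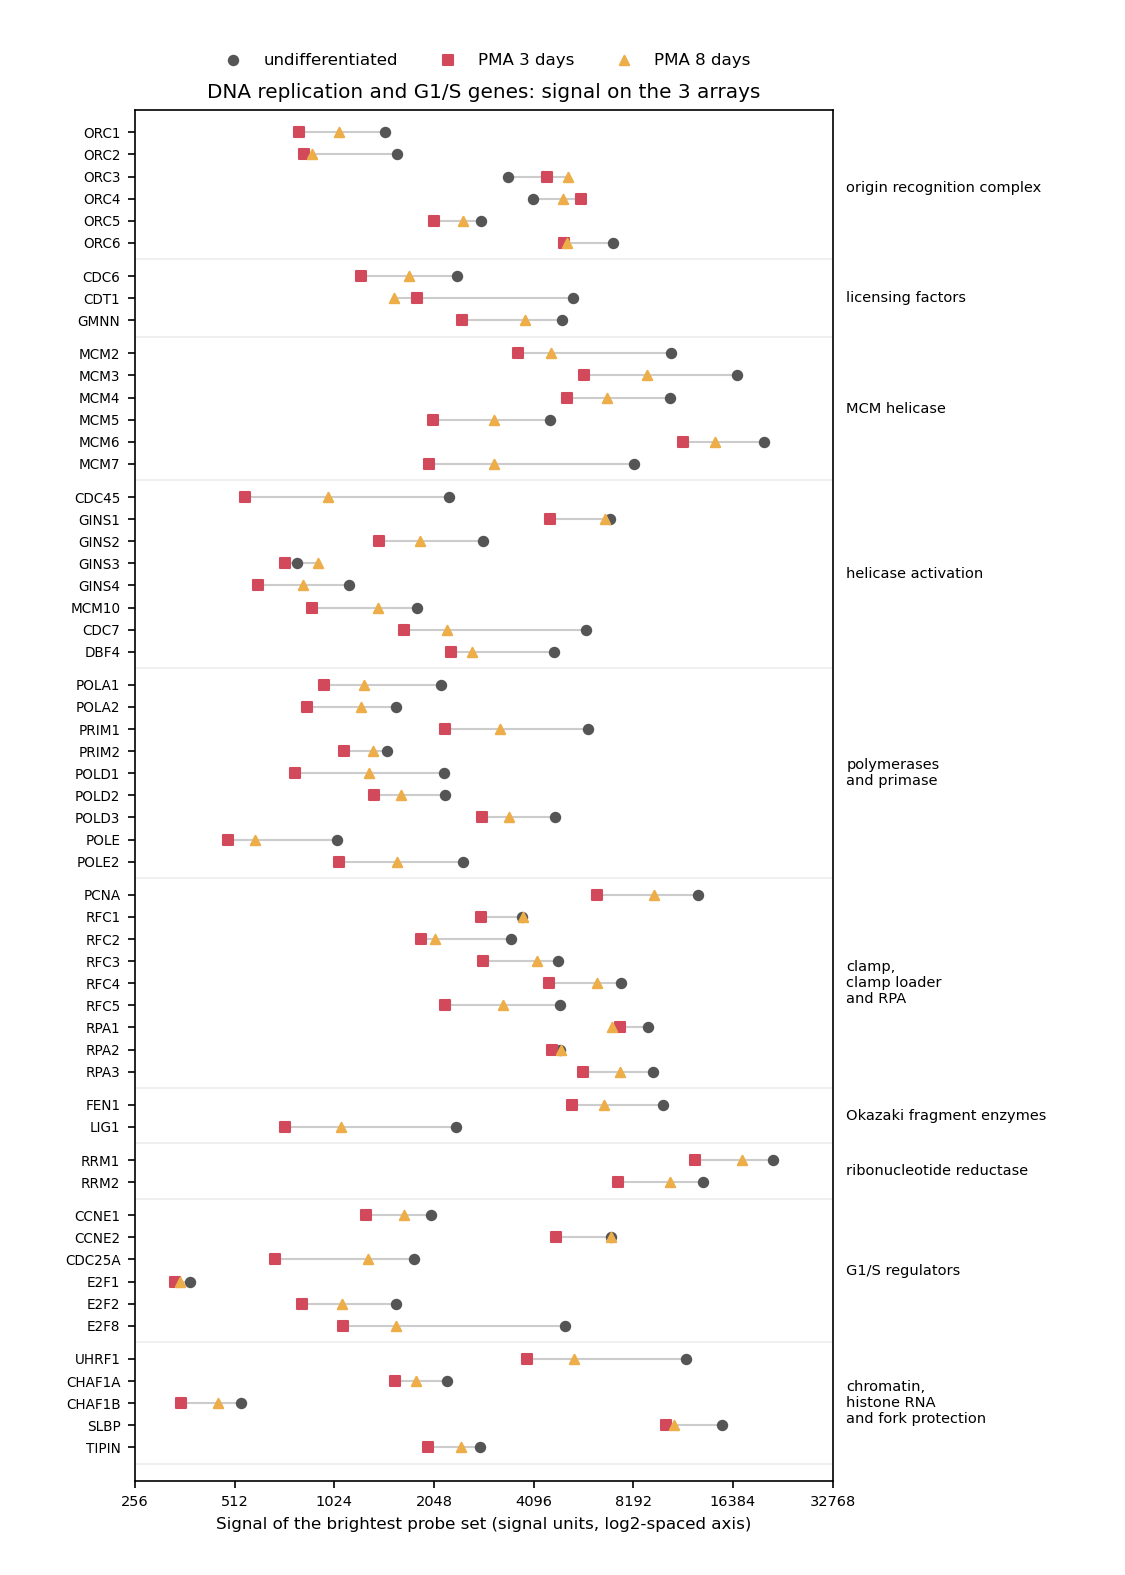
Signal of the brightest probe set of each of the 56 genes on the 3 arrays (log2-spaced axis, signal units), grouped by role; 1 point is 1 array and there are no replicates. For 54 of 56 genes the PMA 3 days point lies left of the undifferentiated point, and ORC3 and ORC4 are the exceptions; positions should be compared within a gene, not between genes.

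Promoter sequence was set beside these values because E2F factors bind such genes near their starts. RefSeq promoter windows of 300 bases (250 before to 50 after a transcript start, assembly GRCh38.p14) were found for 48 of the 56 genes. The search used the E2F-type spellings TTTCCCGC, TTTCGCGC, TTTGCCGC and TTTGGCGC on both strands, in any window of a gene. These letters occurred in 24 of 48 genes (50%), beside 6.39% of the 10739 measured genes with a window and 3.31% of all 35116 windows. They were in 12 of 34 (35.3%) of the other replication fork and S phase genes counted further below. Within only the 250 bases before the start, 19 of the 48 genes (39.6%) held them, beside 5.39% of measured genes. The 4 further spellings TTTCCCGG, TTTCGCGG, TTTGCCGG and TTTGGCGG, chosen after the first counts were seen, gave 28 of 48 genes beside 11.9% of measured genes. With them, 15 of 34 (44.1%) of the other fork and S phase genes held a match. A match is a description of letters and not a measured binding site. Below are the 120 bases that end just before the start of 6 licensing, helicase and fork genes that carry the letters, 5′ to 3′ on the gene's strand, with matches in capitals. MCM6 holds overlapping matches on both strands, and CDC7 holds separate ones on opposite strands.
MCM7 at chr7:100101398-100101517, minus strand: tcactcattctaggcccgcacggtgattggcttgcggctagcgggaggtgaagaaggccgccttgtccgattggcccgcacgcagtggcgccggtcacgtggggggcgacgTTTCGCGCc
MCM6 at chr2:135876444-135876563, minus strand: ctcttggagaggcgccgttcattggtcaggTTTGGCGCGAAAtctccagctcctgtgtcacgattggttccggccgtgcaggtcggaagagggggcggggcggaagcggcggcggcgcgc
CDT1 at chr16:88803669-88803788, plus strand: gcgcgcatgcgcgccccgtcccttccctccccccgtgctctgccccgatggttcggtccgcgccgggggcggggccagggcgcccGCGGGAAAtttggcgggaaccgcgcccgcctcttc
CDC7 at chr1:91500992-91501111, plus strand: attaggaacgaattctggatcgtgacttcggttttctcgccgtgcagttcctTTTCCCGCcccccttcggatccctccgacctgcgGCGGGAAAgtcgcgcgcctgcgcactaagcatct
POLE at chr12:132687343-132687462, minus strand: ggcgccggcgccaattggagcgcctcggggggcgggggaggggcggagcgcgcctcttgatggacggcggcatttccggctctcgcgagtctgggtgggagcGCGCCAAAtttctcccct
LIG1 at chr19:48170345-48170464, minus strand: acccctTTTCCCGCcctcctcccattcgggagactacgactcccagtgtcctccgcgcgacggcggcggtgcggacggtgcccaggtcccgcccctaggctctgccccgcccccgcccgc

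The next set shows the clamp gene PCNA, the chromatin gene UHRF1 and the phosphatase gene CDC25A with their matches, and a pair of genes whose letters and values do not go together. ORC3 carries the letters at its start although its signal was higher on both PMA arrays. CDC45 was among the genes with the largest difference although none of the first spellings lies in its window. It holds TTTGGCGG, which is among the further spellings.
PCNA at chr20:5126623-5126742, minus strand: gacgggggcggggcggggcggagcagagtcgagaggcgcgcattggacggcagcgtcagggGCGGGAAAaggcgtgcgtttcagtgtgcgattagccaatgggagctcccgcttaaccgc
UHRF1 at chr19:4909381-4909500, plus strand: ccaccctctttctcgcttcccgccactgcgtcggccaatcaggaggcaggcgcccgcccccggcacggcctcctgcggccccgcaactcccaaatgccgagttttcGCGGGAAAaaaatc
CDC25A at chr3:48188418-48188537, minus strand: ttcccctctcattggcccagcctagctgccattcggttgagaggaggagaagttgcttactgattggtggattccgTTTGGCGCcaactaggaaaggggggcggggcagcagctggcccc
ORC3 at chr6:87590015-87590134, plus strand: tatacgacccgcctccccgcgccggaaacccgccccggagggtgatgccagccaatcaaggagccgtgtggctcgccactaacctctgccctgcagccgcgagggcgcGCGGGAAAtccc
CDC45 at chr22:19479800-19479919, plus strand: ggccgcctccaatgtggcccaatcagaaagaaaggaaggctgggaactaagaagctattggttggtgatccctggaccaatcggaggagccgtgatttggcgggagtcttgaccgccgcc

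The 24 genes with a match had a median log2 ratio of -1.03 at PMA 3 days over undifferentiated, and 14 of them were lower at 2-fold. The 24 genes without one had a median of -0.75, with 6 lower. Of all genes measured 10.6% were lower. Ratios ranged from -2.06 to 0.39 with a match and from -2.05 to 0.48 without, so the groups overlapped over nearly their whole range. A second motif, the cell cycle homology region (CHR) of mitotic genes, searched as TTTGAA and TTCGAA on both strands, was in 3 of the 48 genes (6.25%), namely MCM6, RRM1 and DBF4, beside 16.3% of measured genes. In the list of G2/M genes it was in 26 of 35 (74.3%), where the E2F-type letters were in 2 of 35. CCAAT, a general promoter box, was in 28 of the 48 genes (58.3%) beside 42.7% of measured genes. Its share was larger in the G2/M genes (27 of 35, 77.1%) and in the other fork and S phase genes (23 of 34, 67.6%).

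**Figure D2:**
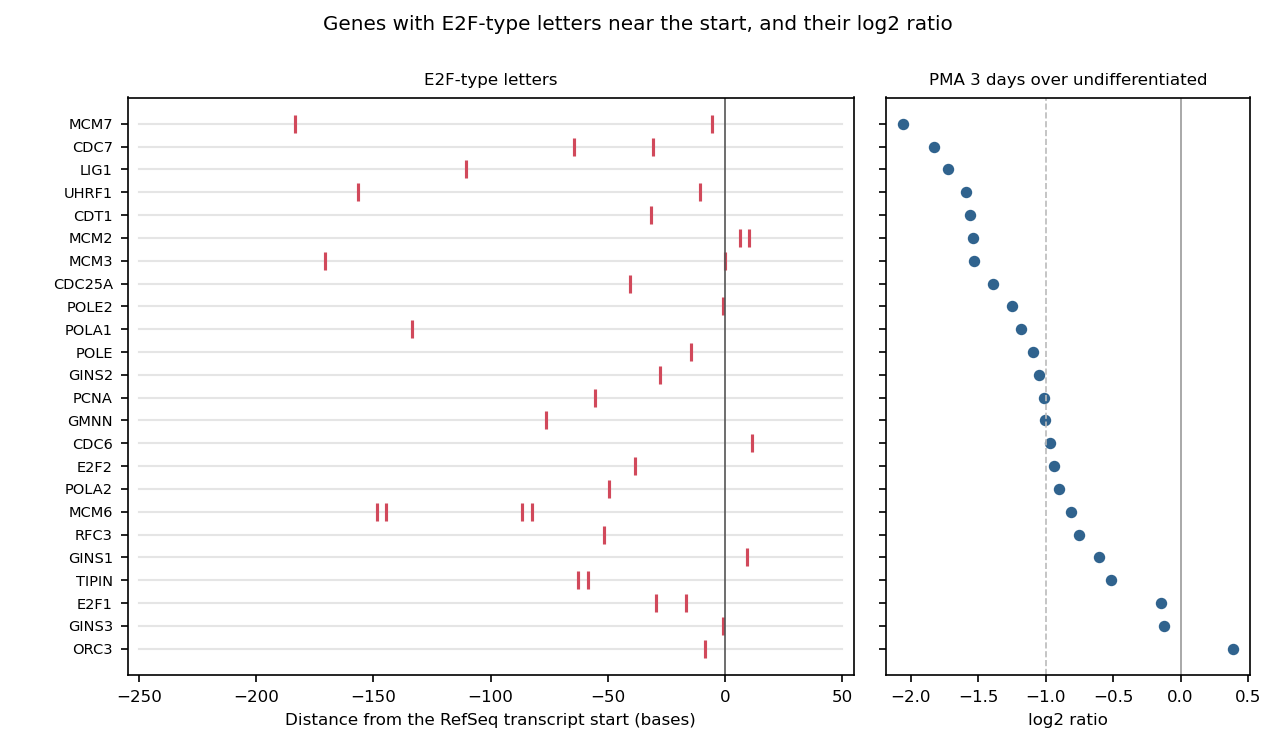
Left: position of the E2F-type letters in the 24 genes that hold them, in bases from the RefSeq transcript start (0), within 250 bases before and 50 after it. Right: log2 ratio of the same genes at PMA 3 days over undifferentiated, 1 array each, dashed line at 2-fold lower; most matches lie within 100 bases before the start, in 19 of the genes, and ORC3 is the gene above 0.

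The MCM2-7 helicase, the ring that unwinds DNA at forks, had 5 of 6 subunits lower at 2-fold and a median log2 ratio of -1.36. After centring 4 of 6 were lower, and under poly-A control scaling 6 of 6. MCM7 read 8228 in undifferentiated cells, 1976 at PMA 3 days and 3111 at PMA 8 days, 4.16-fold lower at PMA 3 days. MCM2 went from 10666 to 3677 and 4612, 2.90-fold lower at PMA 3 days. MCM3 had 16874, 5824 and 9046 signal units in the same order, also 2.90-fold lower at PMA 3 days. The subunits join the ring in equal numbers, yet their ratios were not alike. MCM5, with 4596, 2033 and 3101, was 2.26-fold lower, and MCM4, with 10615, 5168 and 6837, 2.05-fold lower. MCM6 had 20399, 11599 and 14440 and was 1.76-fold lower at PMA 3 days (-1.16 under poly-A control scaling). A second, dimmer MCM6 probe set was lower by a log2 ratio of -1.63, so the order of the subunits depends on the probe set.

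The origin recognition complex, which marks origins and is needed in each cycle, showed 0 of 6 subunits past 2-fold by brightest probe sets and a median of -0.48. Scaled to the poly-A controls, 2 of 6 were past it, ORC1 at -1.21 and ORC2 at -1.27. ORC2 had 1581 signal units undifferentiated, 831 at PMA 3 days and 875 at PMA 8 days, 1.90-fold lower at PMA 3 days. A dimmer ORC2 probe set, with 781, 336 and 339, was past 2-fold, at -1.22 at PMA 3 days and -1.20 at PMA 8 days. ORC1, the subunit whose amount is known to swing with the cycle, had 1462, 803 and 1061. ORC6 had a log2 ratio of -0.49 and ORC5 of -0.47. ORC3 went the other way, with 3439, 4504 and 5209, a log2 ratio of 0.39 at PMA 3 days that was 0.05 under poly-A control scaling. ORC4 was at 0.48 by its brightest probe set (4090, 5695 and 5027) but at -0.82 by its other one (400, 227 and 257), so its direction is not settled.

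Of the licensing factors CDC6, CDT1 and geminin 2 of 3 were lower, 1 of 3 after centring and 3 of 3 under poly-A control scaling. CDT1, which delivers the MCM ring, had 5383, 1822 and 1553, 2.95-fold lower at PMA 3 days. GMNN, its inhibitor, had 4993, 2492 and 3853, 2.00-fold lower at PMA 3 days and just past the threshold. CDC6, the ATPase of loading, had 2405, 1230 and 1726, 1.96-fold lower and just short of it (-1.31 under poly-A control scaling). Its other probe set was just past the threshold, at -1.05. At PMA 8 days the log2 ratio to undifferentiated cells was -1.79 for CDT1 and -0.37 for GMNN. Both probe sets of CDT1 were past 2-fold lower there, but between the PMA arrays they went opposite ways.

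Of the 8 genes that turn the loaded ring into a moving helicase 5 were lower at 2-fold, with a median of -1.04. After centring 2 were lower, and under poly-A control scaling 6. CDC45, a fixed partner of the active helicase, had 2267, 549 and 981, 4.13-fold lower at PMA 3 days. CDC7, the kinase that triggers firing, had 5914, 1665 and 2244, 3.55-fold lower. Its activator DBF4 had 4725, 2311 and 2676, 2.04-fold lower. The GINS complex, the other partner of the active helicase, was less uniform. GINS2 had 2889, 1396 and 1864, 2.07-fold lower at PMA 3 days. GINS3 had 792, 726 and 912, a log2 ratio of -0.12 that was -0.47 under poly-A control scaling. GINS1 was at -0.60 and GINS4 at -0.90. MCM10, which helps the helicase to start, had 1819, 876 and 1386, 2.08-fold lower, and all 3 of its probe sets lay past 2-fold.

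Polymerase and primase genes were lower in 5 of 9 cases, with a median of -1.10. After centring 4 of 9 were lower, with the call of POLE lost, and under poly-A control scaling 8 of 9. POLD1, the catalytic subunit of polymerase delta, had 2195, 781 and 1301, 2.81-fold lower at PMA 3 days. PRIM1, the catalytic primase subunit, had 5984, 2215 and 3252, 2.70-fold lower. POLE2, a subunit of polymerase epsilon, had 2511, 1055 and 1581, 2.38-fold lower. These were joined by the catalytic subunits of the polymerases alpha and epsilon. POLA1 had 2154, 951 and 1260, 2.27-fold lower, and POLE had 1047, 489 and 588, 2.14-fold lower. PRIM2, the partner of PRIM1, had 1479, 1093 and 1341, a log2 ratio of -0.44 and the smallest of this role. The accessory subunits POLA2, POLD2 and POLD3 lay between -0.90 and -0.71.

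The clamp, clamp loader and RPA genes were lower in 2 of 9 cases, with a median of -0.72, beside 10.6% of all genes lower. Under poly-A control scaling 6 of 9 were lower, with RFC2, RFC3, RFC4 and RPA3 added, and after centring 1 of 9, RFC5. PCNA, the sliding clamp that tethers polymerases, had 12851, 6381 and 9457, 2.01-fold lower at PMA 3 days. RFC5, a subunit of the loader, had 4909, 2212 and 3300, 2.22-fold lower, but 1 of its 3 probe sets was at a log2 ratio of 0.35. The remaining loader subunits ranged from -0.90 for RFC2 to -0.41 for RFC1. By its other probe set RFC2 was at -1.12. RPA coats single strands in replication and also in repair. RPA2 had nearly the same signal on the 3 arrays, 4929, 4671 and 4962, and RPA1 was at -0.27, while RPA3 was at -0.71.

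LIG1, the ligase that seals Okazaki fragments, had 2388, 724 and 1070, 3.30-fold lower at PMA 3 days. FEN1, the nuclease that trims their flaps, had 10098, 5356 and 6670, 1.89-fold lower, and passed 2-fold under poly-A control scaling (-1.26). Its other probe set was past 2-fold as deposited, at -1.20. Ribonucleotide reductase, which makes the DNA building blocks, changed by less than 2-fold in both subunits. RRM1 had 21652, 12561 and 17412, and RRM2 had 13312, 7345 and 10568, 1.72-fold and 1.81-fold lower at PMA 3 days. Under poly-A control scaling both passed 2-fold, at log2 ratios of -1.13 and -1.20.

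Among the regulators of S phase entry E2F8 showed the largest difference of the whole list by brightest probe sets. E2F8, a repressor that is itself made in S phase, had 5092, 1084 and 1571, 4.70-fold lower at PMA 3 days. CDC25A, the phosphatase that activates CDK2, had 1778, 677 and 1297, 2.63-fold lower. E2F1, an activator, had 374, 338 and 351, a log2 ratio of -0.15. Its other probe set had 320, 98 and 191, a log2 ratio of -1.09 against the floor, which the PMA 3 days value lies under. E2F2, another activator, was at -0.94, and passed 2-fold under poly-A control scaling (-1.28). With it 3 of the 6 regulators were lower under that scaling, beside 2 as deposited. The cyclin E genes CCNE1 and CCNE2, partners of CDK2, were at -0.65 and -0.55.

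UHRF1, which carries DNA methylation over to new strands, had 11838, 3926 and 5423, 3.02-fold lower at PMA 3 days. The remaining genes of the chromatin and fork group lay close together. TIPIN, a fork protection factor, had 2820, 1969 and 2469, a log2 ratio of -0.52. CHAF1A and CHAF1B, subunits of the chromatin assembly factor that places histones behind the fork, were at -0.52 and -0.60. SLBP, which binds the stem-loop of histone messages, was at -0.56.

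**Figure D3:**
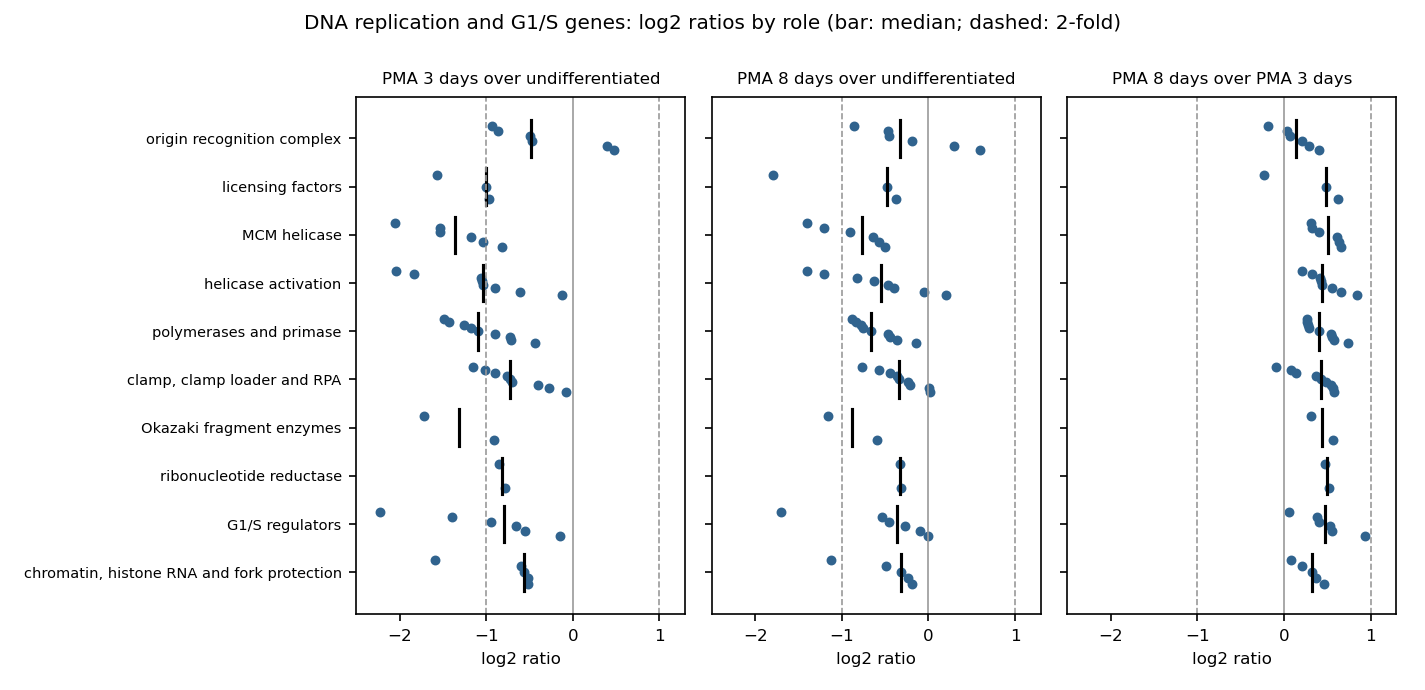
Log2 ratios of the 56 genes in the 3 comparisons, by role; each point is a gene with 1 array per condition, the bar is the role's median, and dashed lines mark 2-fold. At PMA 3 days over undifferentiated the medians run from -1.36 for the MCM helicase to -0.48 for the origin recognition complex, and at PMA 8 days over PMA 3 days every role has a median above 0.

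At PMA 8 days 8 of the 56 genes were called lower than in undifferentiated cells and 0 higher, with a median log2 ratio of -0.46. Of all 13514 genes 8.33% were lower and 9.71% higher, with a median of -0.07. The 14.3% of the list that was lower thus lay not far above the share of all genes, while 50 of 56 genes had a ratio below 0 beside 55% of all genes. The 8 genes were CDT1 (3.47-fold), E2F8 (3.24-fold), MCM7 (2.64-fold), CDC7 (2.64-fold), MCM2 (2.31-fold), CDC45 (2.31-fold), LIG1 (2.23-fold) and UHRF1 (2.18-fold). They came from licensing, the helicase and its activation, ligation, transcription control and chromatin. No polymerase, clamp, loader or nucleotide reductase gene was among them. CCNE2 read 7007 undifferentiated and 7012 at PMA 8 days. RFC1 read 3766 and 3814, and GINS1 6986 and 6751. Both comparisons with undifferentiated cells use the same undifferentiated array.

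Between the PMA arrays the difference was small and nearly all one way. None of the 56 genes was past 2-fold in either direction, beside 0.937% of all 13026 genes lower and 1.36% higher. The median log2 ratio of PMA 8 days over PMA 3 days was 0.40, beside 0.03 for all genes, and 14.1% of all genes lay above it. A ratio above 0 was found for 53 of 56 genes, beside 54.7% of all genes. Under poly-A control scaling the median was 0.71, with all genes at 0.32. Under it CDC25A, CDC45 and POLD1 passed 2-fold higher. These 3 of 56 are near the share of all genes, of which 3.99% were higher under that scaling. This comparison shares the PMA 3 days array with the first, so the ratios are not independent.

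The highest ratios between the PMA arrays belonged to CDC25A (1.91-fold), CDC45 (1.79-fold) and POLD1 (1.67-fold), followed by MCM10 (1.58-fold) and MCM7 (1.57-fold). A second CDC25A probe set went the other way, at a log2 ratio of -0.18. The quartiles of the list were 0.27 and 0.55, beside an SD of 0.27 between probe sets. CDT1, ORC4 and RPA1 were the genes below 0, at -0.23, -0.18 and -0.09. For each of these a second probe set was above 0, at 0.55 for CDT1, 0.18 for ORC4 and 0.11 for RPA1. No gene of the list was therefore lower at PMA 8 days than at PMA 3 days by all of its probe sets above the floor.

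Several genes were read by more than 1 probe set. The 56 genes had 102 probe sets, of which 86 were above the floor on all 3 arrays and 7 on none. At PMA 3 days over undifferentiated 82 of the 86 had a ratio below 0, 37 were lower at 2-fold and 0 higher. Of 24 genes with several such probe sets 21 had all of them on the same side of 0. ORC4, GINS4 and RFC5 were the exceptions. The median distance between the extreme probe sets of a gene was 0.31 log2 units, and it was largest for RFC5, from -1.15 to 0.35. For CDT1 the second probe set had 1363, 253 and 370, a larger difference than the brightest. For CHAF1A, where the brightest probe set gave -0.52, another had 1654, 672 and 1120.

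**Figure D4:**
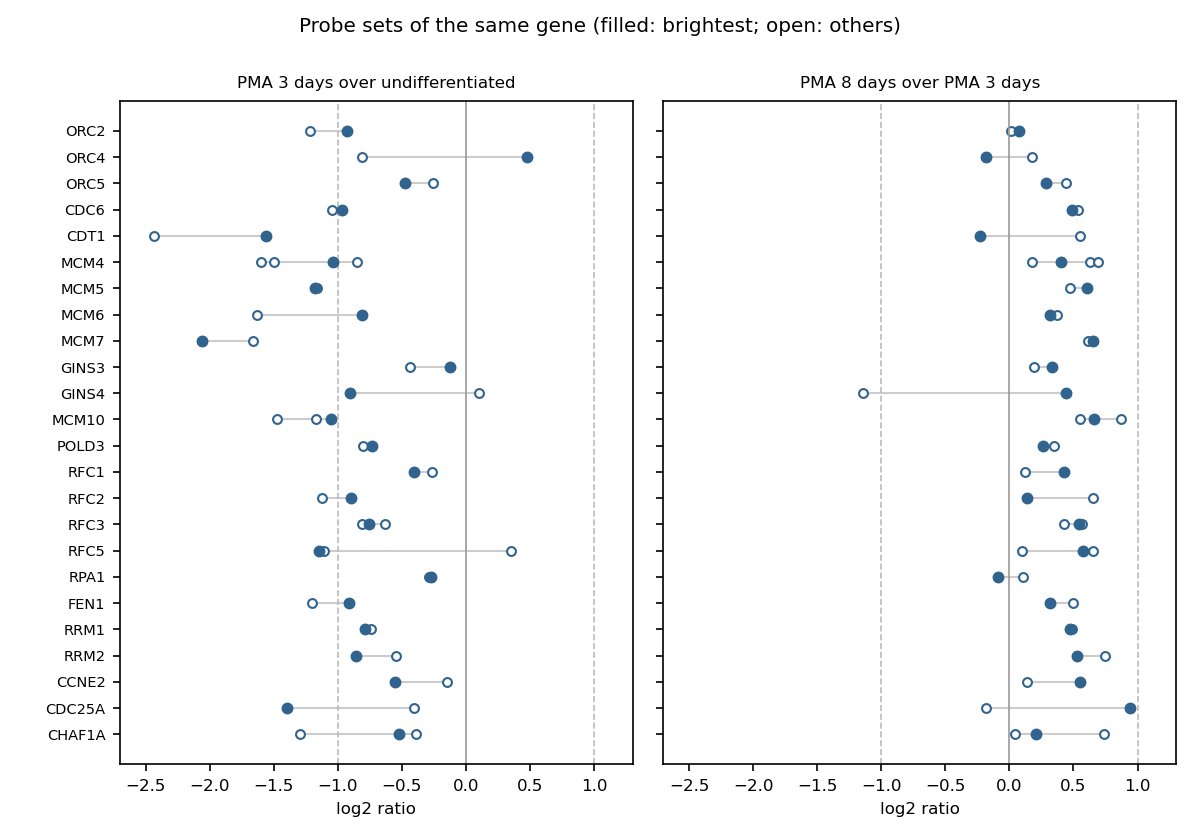
Log2 ratios of single probe sets for the 24 genes with several above the floor on all 3 arrays, at PMA 3 days over undifferentiated (left) and PMA 8 days over PMA 3 days (right). Filled points are the brightest probe set used in the text, open points the others, dashed lines 2-fold; ORC4, GINS4 and RFC5 span 0 on the left, and a GINS4 probe set lies at -1.14 on the right.

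Other genes of the replication pathway were counted in the same way. Of 39 further fork and S phase genes 15 (38.5%) were lower at PMA 3 days over undifferentiated and 0 higher, beside 10.6% of all genes lower, with a median log2 ratio of -0.84. TICRR, which helps to fire origins, was 4.05-fold, CDCA7 3.59-fold, the topoisomerase TOP2A 2.98-fold and the helicase MCM8 2.86-fold lower. At PMA 8 days 2 of 39 were lower, CDCA7 and DNA2, with a median of -0.43. That share of 5.13% was under the 8.33% of all genes. Nucleotide synthesis genes were lower in 2 of 13 cases at PMA 3 days, TYMS (2.20-fold) and TK1 (2.17-fold), with a median of -0.63. Their share of 15.4% was near that of all genes. Of these 13 genes 0 were past 2-fold at PMA 8 days.

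A list of further cyclin, CDK, RB and E2F regulators held genes past 2-fold in both directions. At PMA 3 days 10 of 33 (30.3%) were lower and 2 higher, beside 10.6% of all genes lower and 10.3% higher. The higher genes were the CDK inhibitors CDKN1C (p57) and CDKN1A (p21). CDKN1A had 1601 signal units undifferentiated, 6941 at PMA 3 days and 9286 at PMA 8 days. CDKN1C had 531, 2770 and 1338 by its brightest probe set. The inhibitor CDKN1B went the other way, at log2 ratios to undifferentiated cells of -0.43 at PMA 3 days and -0.74 at PMA 8 days. CDKN2D was at -0.73 against the floor on both PMA arrays, CDKN2A lay near the floor and CDKN2B under it. SKP2, which marks CDK inhibitors for degradation, was 3.51-fold and CDC25C 4.15-fold lower at PMA 3 days. Between the PMA arrays 4 of 32 regulators were higher and 1 lower at PMA 8 days, beside 1.36% of all genes higher and 0.937% lower. CCND1 (cyclin D1), which drives RB phosphorylation, had 307, 538 and 1908, and CCND3 had 5429, 2158 and 4825. CDKN1A was 1.34-fold higher at PMA 8 days than at PMA 3 days, and its part in the values of the 56 genes was not tested.

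Genes of G2 and mitosis differed in size from the replication genes. At PMA 3 days over undifferentiated 36 of 44 were lower, with a median log2 ratio of -1.51. The replication and G1/S list had 23 of 56 and -0.90, and 10.6% of all genes were lower. The kinesin KIF20A was 6.37-fold and the transcription factor MYBL2 4.82-fold lower. At PMA 8 days over undifferentiated the lists were close, with 6 of 44 lower and a median of -0.55 beside 8 of 56 and -0.46. The G2/M share of 13.6% was also not far above the 8.33% of all genes. Between the PMA arrays 13 of 44 G2/M genes were higher at PMA 8 days, beside 1.36% of all genes. Their median was 0.88 beside 0.40 for the replication and G1/S list. With 1 array per condition the difference between the lists was not tested.

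**Figure D5:**
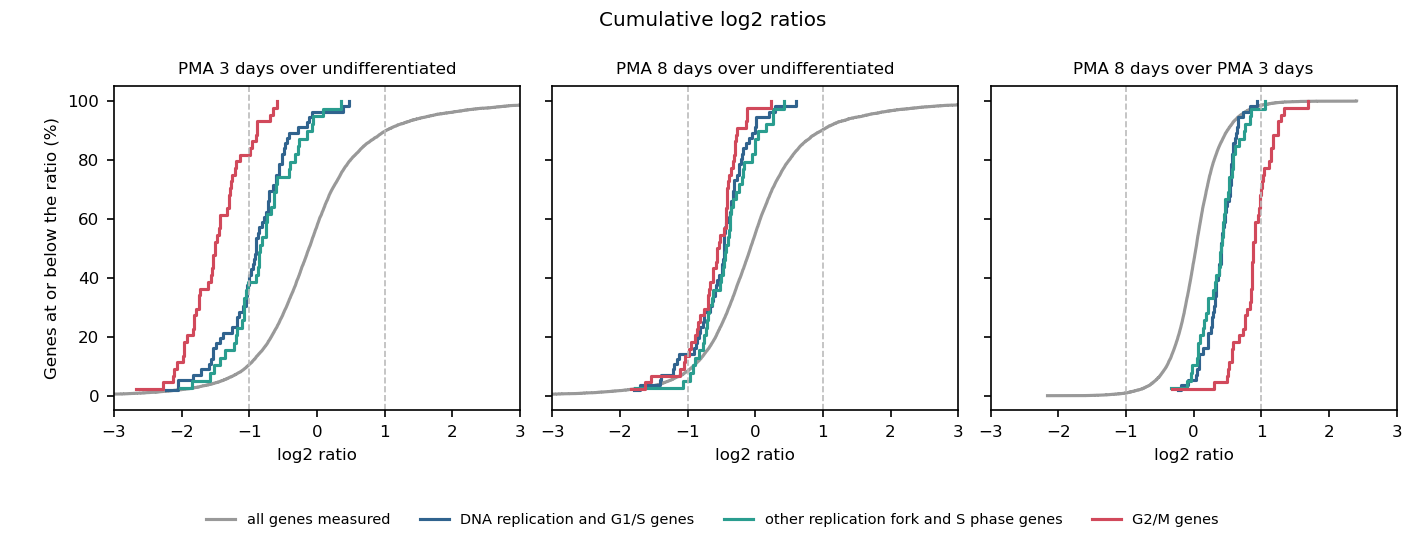
Cumulative share of genes (%) against the log2 ratio in the 3 comparisons, for all genes measured, the 56 DNA replication and G1/S genes, 39 other fork and S phase genes and 44 G2/M genes; dashed lines mark 2-fold. The 56 genes and the other fork genes run together left of all genes at PMA 3 days (medians -0.90 and -0.84) with G2/M genes further left (-1.51), and the order is turned between the PMA arrays.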

How the data were processed

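Total RNA of 3 THP-1 cultures was labelled from 200 ng and hybridised to 1 array each. The intensity values deposited by the authors were made with MAS5, per the submitters' processing notes; version and settings are not given in the sources used here. Each array had a mean of 1000.1 after 2% was left out at either end, which is read from the values. Of 54675 probe sets 62 controls were set aside, 41091 had 1 gene symbol in the platform table, 1801 several and 11721 none. Symbols of the 56 genes were checked by Entrez ID against RefSeq (GRCh38.p14): 56 matched and 0 differed.

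Each gene was represented by the probe set with the highest mean log2 signal. Values under the floor (the median of all values, 149.8) were raised to it, and a gene was measured in a comparison if above the floor on either array. No test was run. Promoter sequences are RefSeq's; 8 genes had no entry and are not covered. The genes and lists were chosen with earlier results of these data known. Named with their 3 values are the genes past 2-fold and, per role, those with the largest and smallest ratio at PMA 3 days over undifferentiated, plus up to 4 genes past 2-fold per other list and comparison; ORC1, ORC4, CCNE2, RFC1, GINS1 and CHAF1A were added after their values were seen. Other genes are given by ratio only. Alternatives were other floors, scalings and probe set choices. The steps were tested on simulated data. Python 3.11.15, numpy 2.4.6, pandas 2.3.3 and matplotlib 3.10.9 were used.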

Additional observations from a re-analysis of the deposited data

How the results depend on the processing

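Most values held under the 9 alternatives, which changed the floor, the scaling or the probe set. The median over a gene's probe sets gave 26 of 56 genes lower at PMA 3 days than in undifferentiated cells. Scaling to the poly-A controls gave 39 genes lower at PMA 3 days than in undifferentiated cells. Between the PMA arrays the poly-A control scaling gave 3 of 56 genes higher at PMA 8 days, beside 3.99% of all genes. The median log2 ratio of the 56 was then 0.71. Only 27 of the genes have a second-brightest probe set above the floor. It gave 12 of 27 (44.4%) lower at PMA 3 days over undifferentiated, beside 10% of all genes. At PMA 8 days over undifferentiated it gave 6 of 27 (22.2%) lower, beside 8.61% of all genes. Between the PMA arrays it gave 1 of 27 (3.7%), GINS4, lower at PMA 8 days, beside 0.888% of all genes. Without probe sets that can match several transcripts, 5 of 42 genes (11.9%) were lower at PMA 8 days over undifferentiated. That was near the 9.44% of all genes. RFC5 turned from lower to 0.35 at PMA 3 days over undifferentiated by its second-brightest probe set; the cause was not tested. Every other count and median stayed within 1.5 times its value, or within the SD between probe sets. Counts out of 27 or 42 genes were set beside counts out of 56 as numbers, not as shares. The share of 22.2% by the second-brightest probe set thus stands beside 14.3% by the brightest. Of 1383 single-gene ratios under alternatives 104 moved by more than that SD, 56 of them under poly-A control scaling and 29 with the second-brightest probe set. Signal near the floor limits the dim probe sets of E2F1, GINS2, GINS4, POLA2, RPA1 and CDC25A. No paired analysis was possible because each condition has 1 array.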

Other observations

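PRIM2 was also read by 4 probe sets that the platform table lists beside PRIM2BP and that were left out above. Of these, 2 were above the floor on all 3 arrays. The brighter had 1518 signal units undifferentiated, 765 at PMA 3 days and 1005 at PMA 8 days, a log2 ratio of -0.99 at PMA 3 days over undifferentiated where the probe set of PRIM2 alone gave -0.44.

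A GINS2 probe set went against the brightest one, with 49.6 signal units undifferentiated, 346 at PMA 3 days and 275 at PMA 8 days. It was under the floor in undifferentiated cells, and its log2 ratio at PMA 3 days against the floor was 1.21. Another GINS2 probe set had 343, 189 and 128. Both genes were singled out after their values were seen.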
